A study of Mus musculus with 16 samples.

Results

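Strain differences in fetal lung were examined under blockade of retinoic acid receptors, as A/J against C57BL/6J (B6) lungs at embryonic stage E14.5 from dams given BMS493. The comparison used every library labelled as lung of these strains with BMS493, 4 from A/J and 4 from B6, which are 8 of the 16 libraries of the series, and all protein-coding genes with enough counts to be tested. Dams were dosed by mouth with 3.75 µg of BMS493 per g per day, starting at E9.5 and ending at E14.5, and the whole lung of the fetus was taken. All fetuses were male according to the design text. The other 8 libraries, 4 per strain, came from dams given corn oil over the same days and are used here as controls. Both strains are inbred, no transgene or deletion is named in the labels, and which fetuses came from the same dam is not recorded in the labels. The drug reached the fetus through the dam, and no drug level is given. Since separate litters are not stated, p-values measure only the spread between these libraries.

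Retinoic acid is made in tissues from circulating retinol by retinol and retinaldehyde dehydrogenases and acts through nuclear receptors, the RARs, which pair with RXRs on DNA. A bound RAR releases corepressors and recruits coactivators. BMS493 is an inverse agonist of the RARs: it strengthens corepressor binding and so shuts target genes. In the developing lung, retinoic acid is known for its part in foregut budding, in the growth of the mesenchyme and in restraining airway smooth muscle. The title of the series names susceptibility to airway hyperresponsiveness, a trait for which A/J is a widely used susceptible strain and B6 a resistant one.

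Counts assigned to genes numbered 20001844 to 22721678 per A/J library and 15207539 to 23719922 per B6 library with BMS493. The lung factor Nkx2-1 read 178 to 312 CPM (counts per 1000000 counts assigned to genes, after scaling between libraries) in these 8 libraries, and Sftpc, the surfactant gene of distal epithelium, was present in all of them. Summed markers were low for thymus (2.97 to 4.84 CPM), skeletal muscle (4.81 to 8.16 CPM) and liver, where the strains did not overlap (1.53 to 6.03 CPM in A/J and 7.53 to 17.0 CPM in B6). The liver sum includes Cps1, the 1 called gene of the 3 tested in that list, which was nearly absent in A/J (values below). Heart markers summed to 73.2 to 92.3 CPM in A/J and 58.1 to 108.7 CPM in B6, highest in B6 replicate 3 and with overlap. The part of liver and heart RNA in the results was not tested. Replicate 3 of the B6 BMS493 group stood apart from the other libraries on the second principal component, which held 7.29% of the variance, and its mitochondrially encoded transcripts summed to 3301 CPM against 8695 to 12410 in the other 7. Its collagen transcripts summed to 22680 CPM against 11220 to 15680 in the other 7. Replicate 2 of that group was the highest in summed distal epithelium markers, at 2139 CPM against 920.2 to 1594 in the other 7. The B6 BMS493 group was also the most variable, with a median SD over genes of 0.204 on the log2 scale against 0.129 in A/J with BMS493 and 0.150 in B6 without replicate 3. Many of the results that moved with these libraries are also given without them. In whole tissue, fewer cells of a type and less RNA per cell cannot be told apart.

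Differences are given as log2 fold changes of A/J over B6, so that a positive value is higher in A/J, and a gene is called where the adjusted p of edgeR's quasi-likelihood test (Benjamini-Hochberg over all 17276 genes tested) was under 0.05. Of 14155 protein-coding genes tested, 3027 were called (21.4%), of which 1109 were higher in A/J (7.83%) and 1918 lower (13.5%). The difference was at least 1 on the log2 scale for 652 of them. In 2853 genes (20.2%) the 4 A/J and the 4 B6 libraries did not overlap in CPM, and 2246 of these were called. The median log2 fold change over all tested coding genes was -0.010. The number of calls moved with single libraries of both strains. Without B6 replicate 2, 2200 genes were called and 2089 of the 3027 were among them. Leaving out A/J replicate 1, 3 or 4 gave 2370, 2314 or 2286 calls, and leaving out B6 replicate 3 gave 2942, with 2474 of the 3027 among them. Without B6 replicates 2 and 3 together, 1745 were called and 1536 of the 3027 were among them. The shares of all coding genes (21.4% called, 7.83% higher and 13.5% lower) are the background for each count of list members. In all 8 fits that each left out 1 BMS493 library, 1776 of the 3027 remained called. The p-values use a spread shared by all 16 libraries. A fit to only the 8 BMS493 libraries called 2018 genes, with 2013 of the 3027 among them.

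The same strain contrast in control lungs, which uses the other 8 libraries of the same fit, called 2462 coding genes (17.4%), 901 higher (6.37%) and 1561 lower (11.0%) in A/J. In the fit without B6 BMS493 replicates 2 and 3, 3485 genes were called in controls against 1745 with BMS493. That fit set 4 against 2 libraries with BMS493 and 4 against 4 in controls, with a shared spread, so the 2 counts are not alike. Fits to replicates 1 and 2 alone and to 3 and 4 alone called 1141 and 1133 with BMS493 against 944 and 945 in controls. There were 1789 genes called in both contrasts, each with 1 direction in both. These were 59.1% of the calls with BMS493 and 72.7% of the calls in controls. A further 1238 genes were called with BMS493 and not in controls, 509 higher and 729 lower in A/J. In controls 1174 of these 1238 had the same sign, and 516 had an unadjusted p under 0.05. The median absolute log2 fold change of the 1238 was 0.37 with BMS493 and 0.19 in controls. With B6 replicates 2 and 3 left out, 297 of the 1238 were still called with BMS493, and in the fit to only the 8 BMS493 libraries 563 were. The test of the difference between the contrasts, an interaction term, called 1 coding gene (0.00706%), Gbp2, and 0 of the 1238. It was also the only call among all genes tested (0.00579%). An unadjusted interaction p under 0.05 was found for 509 coding genes, 176 of them among the 1238. DESeq2 called 2 coding genes in the interaction, and edgeR without the filter on low counts called 12. A call with BMS493 and none in controls was therefore no tested difference between the treatments.

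**Figure D1:**
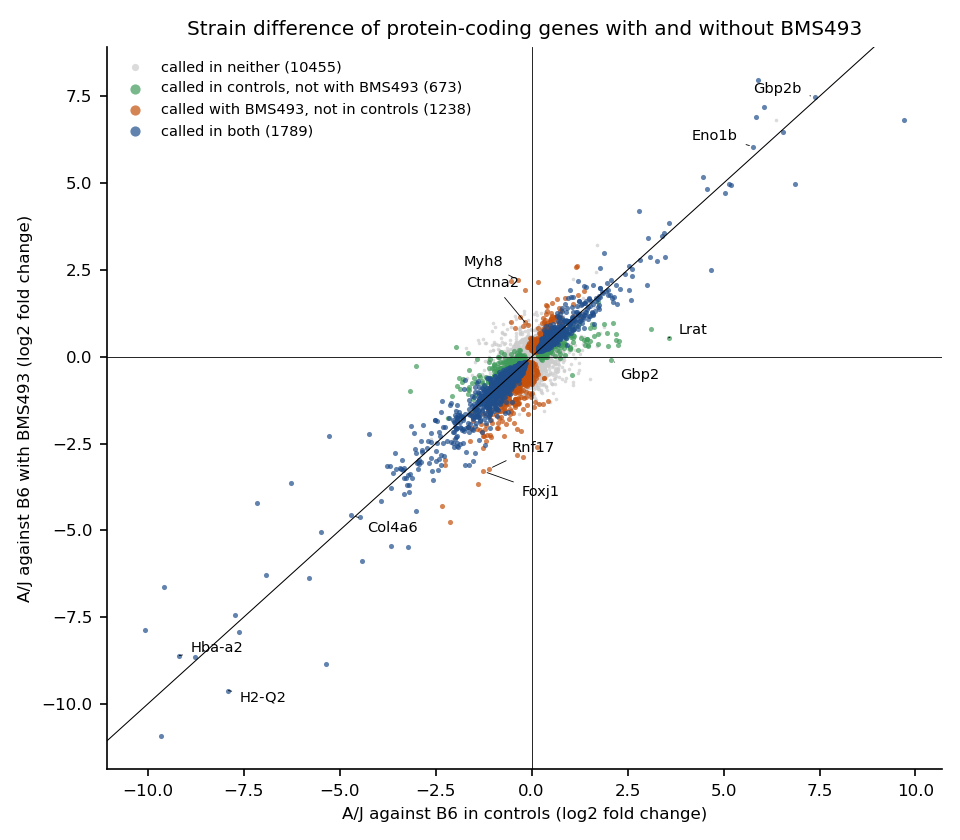
Log2 fold change of A/J against B6 in controls (horizontal axis) and with BMS493 (vertical axis), 1 point per tested protein-coding gene, with the line of equal values. The 1789 genes called in both lie along that line, while Gbp2 and Lrat lie far right of 0 in controls and near 0 with BMS493.

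The gene called in the interaction, Gbp2, lost its strain difference with BMS493, and Lrat had similar values without being called. Gbp2 (ENSMUSG00000028270, chromosome 3) encodes an interferon-inducible guanylate-binding protein, and Lrat (ENSMUSG00000028003, chromosome 3) encodes the enzyme that esterifies retinol for storage. In controls Gbp2 averaged 10.5 ± 1.1 CPM in A/J and 2.48 ± 0.412 CPM in B6 (SD, n = 4 each), a log2 fold change of 2.06 (adjusted p = 2.56e-09). With BMS493 it read 2.18, 1.41, 1.63 and 1.31 CPM in A/J replicates 1 to 4 and 1.77, 2.11, 1.53 and 1.49 CPM in B6 replicates 1 to 4. The BMS493 groups overlapped, and the log2 fold change was -0.10 (SE 0.211, adjusted p = 0.801). The interaction was -2.16 (SE 0.28, adjusted p = 0.000736), and it was not called in fits to replicates 1 and 2 alone (-2.04, adjusted p = 0.397) or to replicates 3 and 4 alone (-2.25, adjusted p = 0.837), where each group had 2 libraries.

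Lrat was more abundant in A/J controls, at 16.5 ± 1.87 CPM against 1.38 ± 0.410 CPM in B6 controls (SD, n = 4 each), a log2 fold change of 3.57 (adjusted p = 1.67e-12). With BMS493 it read 0.232, 0.176, 0.558 and 0.453 CPM in the A/J libraries and 0.253, 0.127, 0.267 and 0.345 CPM in the B6 libraries. The groups overlapped, on 30 counts in all in A/J and 18 in B6, and the log2 fold change was 0.55 (SE 0.442, adjusted p = 0.432). Its interaction of -3.02 (SE 0.545) was not called (adjusted p = 0.0834). DESeq2 gave it an adjusted p of 1.94e-05 and the fit without the filter 0.000337, whereas the fit to replicates 3 and 4 alone gave -2.47 with an adjusted p of 1.

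The neighbouring family member Gbp2b (ENSMUSG00000040264, chromosome 3) was called in both contrasts. It read 1.02, 1.06, 0.837 and 1.51 CPM in A/J with BMS493 and had 0 counts in all 4 B6 libraries, at least 27.75-fold higher in A/J against a floor of 3 counts over the group. In controls it averaged 7.28 ± 0.265 CPM in A/J (SD, n = 4) and had 3 counts in all in B6, and its interaction was not called (adjusted p = 0.999). Of the 50-base windows of Gbp2 and of Gbp2b, 2.03% and 1.84% occur in other genes. Gbp4 was also called, at 1.38 (adjusted p = 0.000651). Gbp3 and Gbp5 were called in controls at 1.46 and 2.20 and not with BMS493, at 0.30 and 0.48. Their interactions were -1.16 and -1.73 with adjusted p of 0.999 each. Of the 8 tested members of the Gbp list, 2 were called with BMS493, both higher in A/J, against 6 in controls, and the median log2 fold change was 0.36 against 1.61. These 2 of 8 are near the 21.4% of all coding genes, and without B6 replicate 2 there were 3 calls, all higher, with a median of 0.73. Promoters of the 3 genes, from 250 bases before to 50 after the gene start, are shown because the strains overlapped with BMS493 for Gbp2 and Lrat and did not for Gbp2b. They are from RefSeq on build GRCm38.p6, a C57BL/6J reference and not the build of the count files. No A/J sequence was examined, and a relation of these promoters to the strain differences was not tested. Capitals mark matches to the core of the interferon-stimulated response element, which is GAAA, any 2 bases and GAAA again, on either strand.
Gbp2, chr3:142620413-142620712, plus strand: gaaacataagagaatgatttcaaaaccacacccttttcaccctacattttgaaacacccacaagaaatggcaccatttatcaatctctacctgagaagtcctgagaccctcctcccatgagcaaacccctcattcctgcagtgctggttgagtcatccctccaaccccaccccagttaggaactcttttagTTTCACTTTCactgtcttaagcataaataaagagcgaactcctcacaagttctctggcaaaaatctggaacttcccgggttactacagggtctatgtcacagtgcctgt
Gbp2b, chr3:142594597-142594896, plus strand: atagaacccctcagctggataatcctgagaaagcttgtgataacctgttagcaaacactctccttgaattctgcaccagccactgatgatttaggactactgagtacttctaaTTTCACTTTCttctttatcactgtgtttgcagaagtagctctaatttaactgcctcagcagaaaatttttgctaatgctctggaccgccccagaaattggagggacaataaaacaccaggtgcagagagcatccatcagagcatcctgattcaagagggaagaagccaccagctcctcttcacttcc
Lrat, chr3:82903925-82904224, minus strand: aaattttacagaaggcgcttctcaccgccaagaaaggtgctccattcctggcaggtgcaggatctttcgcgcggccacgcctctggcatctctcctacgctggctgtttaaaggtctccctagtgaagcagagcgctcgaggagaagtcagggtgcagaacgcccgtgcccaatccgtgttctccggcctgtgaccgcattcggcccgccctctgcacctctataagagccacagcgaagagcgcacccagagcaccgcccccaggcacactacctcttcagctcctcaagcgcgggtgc
The core occurred once each in the Gbp2 and Gbp2b promoters, with the first base at -59 and -137 from the gene start, and 0 times in that of Lrat. It occurs in 3.44% of 32851 mouse promoters of this length. Neither the retinoic acid half-site AGGTCA (16.3% of promoters) nor the gamma-activated sequence TTCNNNGAA (8.3%) occurred in the 3 windows on either strand.

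The next genes were those called with BMS493 and not in controls whose 2 contrasts differed most. From 181 such genes with an absolute log2 fold change of at least 0.58, a mean of at least 1 CPM and groups without overlap, the 12 with the smallest unadjusted interaction p were taken, so their gap between the contrasts is a description. None of the 12 was called in the interaction, with adjusted p of 0.803 for Ctnna2 and 0.999 for the other 11. The fit without the filter on low counts called Ctnna2 in the interaction (1.02, adjusted p = 0.00373), and its adjusted p over the alternatives ran up to 1. When B6 replicates 2 and 3 were left out, 10 of the 12 were still called with BMS493, and Dlgap1 (adjusted p = 0.155) and Plekhd1 (0.126) were not.

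Ctnna2 (ENSMUSG00000063063, chromosome 6), the alpha-catenin of neurons, read 10.7, 11.9, 9.39 and 8.16 CPM in A/J with BMS493 and 5.55, 3.72, 5.14 and 7.18 CPM in B6 with BMS493. Every A/J library was above every B6 library, and the log2 difference was 0.91 (SE 0.176, adjusted p = 0.000495). In controls the means were 10.2 ± 1.5 CPM in A/J and 10.9 ± 2.07 CPM in B6 (SD, n = 4 each), at -0.10. Cpm, which encodes carboxypeptidase M of the cell membrane, read 19.2, 23.1, 18.1 and 19.6 CPM in A/J and 25.9, 47.4, 31.4 and 32.8 CPM in B6 with BMS493. B6 replicate 2 was the highest, and the log2 fold change was -0.79 (SE 0.130, adjusted p = 0.000124) with it and -0.58 (adjusted p = 0.000127) without it, against -0.10 in controls. Itgb6, an epithelial integrin chain that activates latent TGF-beta, read 4.08, 6.55, 4.09 and 4.33 CPM in A/J and 7.78, 11.5, 7.01 and 7.52 CPM in B6. Replicate 2 was the highest in each strain, and the log2 fold change was -0.83 (adjusted p = 0.00107) against -0.12 in controls.

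Myh8, the perinatal myosin heavy chain of skeletal muscle, read 1.67, 2.07, 0.791 and 2.42 CPM in A/J and 0.454, 0.338, 0.334 and 0.345 CPM in B6 with BMS493. A/J was higher by a log2 difference of 2.21 (SE 0.472, adjusted p = 0.0013) against -0.36 in controls. Myh8 was the only 1 of the 5 tested skeletal muscle genes that was called, while without B6 replicate 3 there were 2 calls, 1 higher and 1 lower. Rnf17, a tudor-domain gene of germ cells, read 0.371, 0.264, 0.233 and 0.101 CPM in A/J and 1.82, 1.52, 3.74 and 2.47 CPM in B6, at -3.23 (SE 0.521, adjusted p = 7.28e-05) against -1.12 in controls. Its interaction of -2.12 turned to 0.46 in the fit to replicates 1 and 2 alone. The neuronal genes Hpca (a calcium sensor, -1.93) and Syt17 (a synaptotagmin, -1.49) were lower in A/J with BMS493, as were Ccdc88b (-1.06), the actin regulator Eps8l2 (-0.76), Lurap1l (-0.74) and Plekhd1 (-0.63). Dlgap1, a postsynaptic scaffold gene, was higher in A/J (1.14). Eps8l2, Hpca and Dlgap1 are uncertain, since the 2 single-strand count columns together held 2.12, 1.34 and 1.22 times their unstranded counts, so that reads were lost to overlapping genes.

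**Figure D2:**
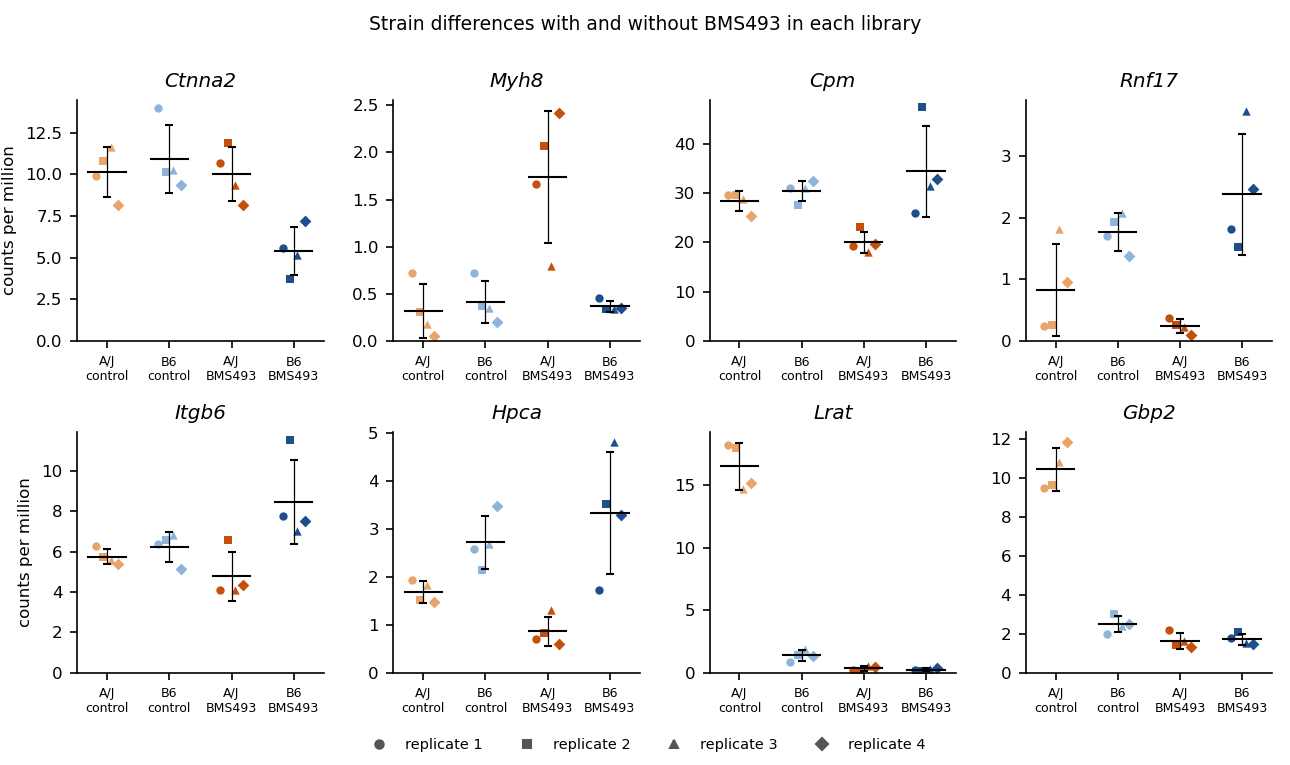
CPM of 8 genes in each library (marker shape gives the replicate number), with the mean and SD of each group of 4 libraries. Ctnna2 was lower in B6 with BMS493 (3.72 to 7.18) than in the other 3 groups, and for Lrat and Gbp2 the A/J libraries were above the B6 libraries in controls and overlapped them with BMS493.

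Genes of retinoid handling differed between the strains in directions that varied by gene. Of 15 tested genes of retinoid metabolism and transport, 8 were called with BMS493 (53.3%, against 21.4% of all coding genes), 6 higher and 2 lower in A/J, with a median of 0.39 (0.34 in controls, where 5 were called, all higher). With B6 replicates 2 and 3 left out, 2 were higher and 1 lower, with a median of 0.24. Fabp5, a fatty-acid-binding protein that also carries retinoic acid, read 68.3, 66.4, 76.9 and 73.3 CPM in A/J and 36.5, 36.1, 30.8 and 41.1 CPM in B6. The libraries of the strains did not overlap, and the log2 fold change was 0.98 (SE 0.079, adjusted p = 6.99e-10). Stra6, the cell-surface retinol importer, read 5.66, 4.97, 5.30 and 7.76 CPM in A/J and 3.74, 1.23, 2.60 and 3.50 CPM in B6, with no overlap. The difference was 1.11 on the log2 scale (SE 0.239, adjusted p = 0.0016), and it stayed called in all 8 fits without 1 library. The cellular retinoic-acid-binding gene Crabp2 was higher by 0.85 (adjusted p = 0.0287), a call lost without A/J replicate 3 or 4 or B6 replicate 2 or 3 (adjusted p of up to 0.113).

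Among the enzymes that make retinoic acid, Rdh10 (retinol to retinaldehyde) stood at 0.40 (adjusted p = 0.00378) and Aldh1a2 (retinaldehyde to retinoic acid) at 0.59 (adjusted p = 0.0211). Aldh1a2 read 66.4, 59.4, 70.7 and 69.1 CPM in A/J and 53.6, 27.9, 38.6 and 56.3 CPM in B6, and its call was lost without A/J replicate 3 or B6 replicate 3 (adjusted p of up to 0.0725). Rbp4, the retinol carrier of plasma, was higher by 0.58 (adjusted p = 0.0128). This call was lost without A/J replicate 4 (adjusted p = 0.0567). Dhrs3, which reduces retinaldehyde back to retinol and is a target of retinoic acid, was lower in A/J. It read 4.96, 3.70, 3.67 and 4.48 CPM in A/J and 4.34, 7.53, 9.54 and 7.35 CPM in B6 with BMS493, so that B6 replicate 1 lay within the A/J range. The log2 fold change was -0.76 (SE 0.174, adjusted p = 0.00242), against -0.01 in controls, and the interaction of -0.76 was not called (adjusted p = 0.999).

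The 9 receptor and corepressor genes showed 0 calls in either contrast, with a median of 0.02 with BMS493. DESeq2 also called 0 of the 9 with BMS493, and 0 had an unadjusted p under 0.05 in edgeR (smallest 0.0736). Of 19 tested retinoic acid targets, 9 were called (47.4%, against 21.4%), 7 higher and 2 lower in A/J, with a median of 0.17 (0.16 in controls, with 5 higher and 0 lower). They share Stra6, Crabp2 and Dhrs3 with the list above. The calls also held homeobox genes: Meis1 at 0.41, Hoxb4 at 0.34, Hoxb3 at 0.30, Hoxb5 at 0.27 and Hoxb2 at 0.81. The calls of Hoxb3 and Hoxb5 were lost without B6 replicate 2 (adjusted p = 0.0661 and 0.119), and also without B6 replicate 3 and, for Hoxb5, A/J replicates 3 and 4. Hoxb2 and Hoxb3 are uncertain, since the single-strand columns held 12.9 and 1.57 times the unstranded counts. With B6 replicates 2 and 3 left out, 2 targets were called higher and 1 lower. Rarb, a receptor gene that is itself a classical target, was not called. It read 2.56 to 3.98 CPM in A/J and 2.68 to 6.67 CPM in B6 (log2 fold change -0.41, adjusted p = 0.208), and 34.1% of its windows of sequence occur in other genes. Cyp26b1, a hydroxylase that clears retinoic acid, read 0.755 to 1.34 CPM in A/J and 1.1 to 2.47 CPM in B6 and was not called either (-0.43, adjusted p = 0.479).

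Among called genes with a mean of at least 5 CPM and no overlap between the strains, the 10 highest and 10 lowest strain differences with BMS493 were also called in controls, in the same direction. Clone, GenBank and predicted-gene names were left out of this ranking. Among the ranked genes with little shared sequence, Pianp, Rgs4, Stk32b, Wdfy1, Glo1, Hebp1 and Gatm were higher in A/J, and Col4a6, Rec8, H2-D1, A2m, Scgb3a2 and Dysf were lower. Glo1 is uncertain, since the single-strand columns together held 1.35 times its unstranded counts. Pianp, a neural membrane protein gene, read 27.9, 29.6, 30.7 and 22.2 CPM in A/J and 0.656, 0.761, 1.2 and 1.03 CPM in B6, which is a log2 difference of 4.95 (SE 0.187, adjusted p = 1.13e-16). Rgs4, which shortens G protein signals, read 19.4, 18.4, 26.2 and 21.5 CPM in A/J and 5.20, 3.09, 5.61 and 5.0 CPM in B6, at 2.20 (SE 0.166, adjusted p = 1.97e-10). Wdfy1 (1.91), Glo1 (glyoxalase, 1.87), Hebp1 (a heme-binding protein, 1.83), Gatm (the first enzyme of creatine synthesis, 1.70) and the kinase gene Stk32b (1.98) differed in the same way. Their interactions lay between -0.25 and 0.20, and none was called (adjusted p of 0.999 or above).

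Col4a6 (ENSMUSG00000031273, chromosome X), a basement membrane collagen chain, read 3.15, 2.82, 2.79 and 2.06 CPM in A/J and 57.4, 75.5, 67.8 and 56.2 CPM in B6. The log2 fold change was -4.56 (SE 0.131, adjusted p = 3.15e-19) and -4.70 in controls. Dysf, the membrane-repair gene dysferlin in which A/J is known to carry a retrotransposon insertion, read 4.68, 5.24, 3.58 and 4.28 CPM in A/J and 35.3, 38.9, 34.4 and 38 CPM in B6, at -3.04 (SE 0.123, adjusted p = 4.14e-16). Rec8, a meiotic cohesin subunit, was lower, at -3.68, and the protease inhibitor gene A2m at -3.25. Hc, the complement component for which A/J is known as a null strain, read 0.176 to 0.278 CPM in A/J and 0.454 to 2.16 CPM in B6, at -2.54 (adjusted p = 0.000335). Trim12a had 0 counts in A/J and 2.30 to 2.79 CPM in B6, at least 71.5-fold lower in A/J. Cps1, the entry enzyme of the urea cycle, had 2 counts in A/J, all in replicate 3, and 4.27 to 9.39 CPM in B6, a ratio of 292 with a 95% counting interval (Clopper-Pearson) of 80.55 to 2421. Nnt, whose B6J deletion is well known, and Naip5 were low and not called, at 0.0504 to 1.35 CPM over the 8 libraries (0.46, adjusted p = 0.522, and -0.81, adjusted p = 0.288). Both are uncertain, since 47.0% of the windows of Nnt, nearly all in a second entry of that name, and 36.9% of those of Naip5 also occur in another entry.

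Several of the extreme genes have near-identical copies elsewhere, and their values depend on where reads were placed. The share of the 50-base windows of a gene that also occur in another gene was 85.2% for Eno1b (log2 fold change 6.05), 89.0% for Hmga1b (4.98), 91.9% for Eif3j2 (3.85), 89.3% for Hba-a2 (-8.61), 99.7% for Plac9a (-3.41), 71.0% for Rps3a1 (-2.42) and 53.5% for H2-T22 (-3.02). Summed with the gene that shares the most windows, Eif3j2 and Eif3j1 averaged 75.8 ± 5.0 CPM in A/J and 76.3 ± 6.11 CPM in B6 (SD, n = 4 each). Hmga1b and Hmga1 came to 275 ± 18.1 and 223 ± 45.8 CPM, and Eno1b and Eno1 to 1053 ± 115 and 1326 ± 234 CPM. Hba-a2 and Hba-a1, which encode the same alpha-globin chain, came to 1368 ± 501 and 911 ± 209.6 CPM. Rpl26, a ribosomal protein gene (22.7% shared, log2 fold change -4.62), came with Gm15772 to 296 ± 21.7 and 478 ± 6.76 CPM. The sums of these 5 pairs were much closer between the strains than the named genes. The sum of Rps3a1, another ribosomal protein gene, with Rps3a2 was 366 ± 20.6 CPM in A/J and 1254 ± 290.4 CPM in B6. Rpl29 (35.5% shared, -2.69) and Hmgn2 (25.4% shared, -1.91), a nucleosome-binding protein gene, were also lower in A/J. The mouse reference genome is from C57BL/6J, and multimapping fragments made up 3.62% to 3.95% of A/J and 2.81% to 3.28% of B6 libraries with BMS493, a difference whose part in these results was not tested.

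**Figure D3:**
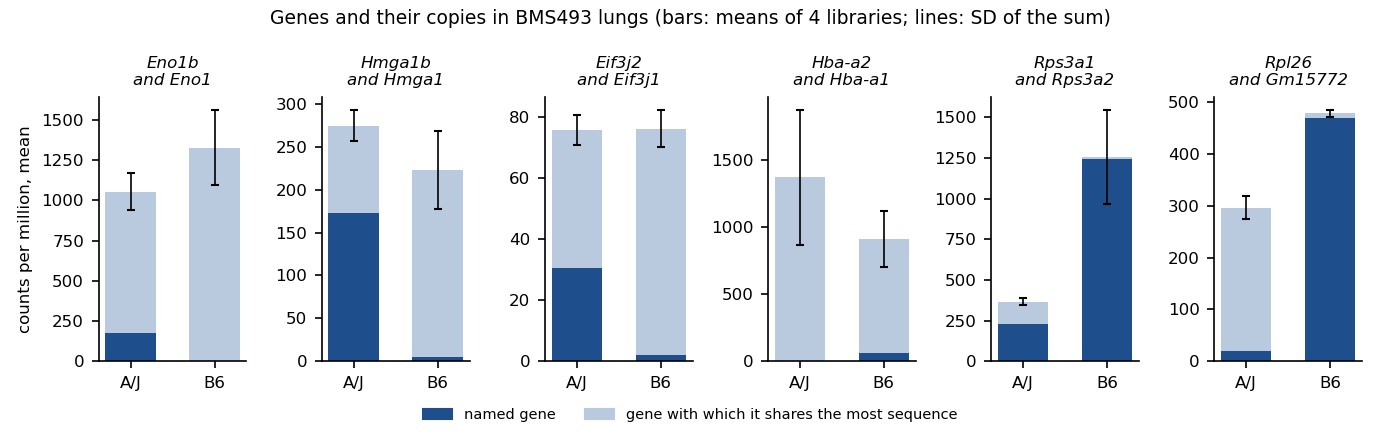
Mean CPM in the BMS493 libraries of 6 named genes (dark) and, stacked above, of the gene with which each shares the most sequence (light), with the SD of the sum over 4 libraries. All 6 sums were closer between A/J and B6 than the named genes (75.8 against 76.3 CPM for Eif3j2 with Eif3j1), and the sum of Rps3a1 with its partner differed the most (366 against 1254 CPM).

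The called genes of the 3 epithelial lists were all lower in A/J with BMS493. Of 16 tested distal epithelium genes, 7 were lower (43.8%, against 13.5% of all coding genes) and 0 higher in A/J, with a median of -0.67, against 2 lower and a median of -0.19 in controls. Of 10 proximal epithelium genes, 6 (60%) were lower and 0 higher (median -0.84, against 3 lower and -0.58 in controls), and of 12 genes of lung and epithelial identity 7 (58.3%) were lower and 0 higher (median -0.41, against 4 lower and -0.26). The difference of the contrasts was called for 0 genes of these 3 lists. The distal count fell to 4 without B6 replicate 2, while the other 2 counts stayed at 6 and 7. Without replicates 2 and 3 together the counts were 2, 4 and 4, all lower, with medians of -0.18, -0.55 and -0.22.

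Sftpc (ENSMUSG00000022097, chromosome 14), surfactant protein C of distal epithelium, read 86.9, 109, 76.0 and 75.0 CPM in A/J and 179, 868, 589.6 and 288 CPM in B6 with BMS493. All B6 libraries were above all A/J libraries, and replicates 2 and 3 were the highest. The log2 fold change was -2.47 (SE 0.413, adjusted p = 0.000955), -1.43 (adjusted p = 0.0045) without these 2 libraries and -1.79 in controls. Ager, the receptor gene of alveolar type I cells, read 17.1, 20.7, 14.6 and 17.1 CPM in A/J and 25.6, 74.7, 49.4 and 27.5 CPM in B6, at -1.35 (adjusted p = 0.00568) with all libraries and -0.61 (adjusted p = 0.00635) without B6 replicates 2 and 3. Slc34a2, the phosphate transporter of type II cells, rested on 1 library: it read 0.0465 to 0.484 CPM in A/J and 0.454, 7.32, 1.14 and 0.459 CPM in B6. The difference was -2.98 on the log2 scale (adjusted p = 0.0323), and -1.13 (adjusted p = 0.272) without B6 replicate 2. It was also lost without any of the 4 A/J libraries. The calls of Napsa (-1.90), Muc1 (-1.22) and Hopx (-0.78) were likewise lost in 3, 3 and 2 of the 8 fits without 1 library (adjusted p of up to 0.126, 0.0712 and 0.108), and Lamp3 (-1.03) was called in all 8. Napsa and Hopx are uncertain, since the single-strand columns held 1.66 and 1.72 times their unstranded counts. Sftpb (-1.18, adjusted p = 0.0506) and Abca3 (-0.39, adjusted p = 0.144), also surfactant genes, were not called.

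In the proximal list, Scgb3a2, a secretoglobin of airway secretory cells, read 1.81, 3.78, 1.16 and 1.81 CPM in A/J and 6.97, 27.2, 27.8 and 12.2 CPM in B6. The strains did not overlap, and the log2 fold change was -3.10 (SE 0.481, adjusted p = 0.000446), -2.14 (adjusted p = 0.00361) without B6 replicates 2 and 3, and -2.94 in controls. Foxj1, the master gene of motile cilia, read 1.07, 0.880, 0.698 and 0.302 CPM in A/J and 2.88, 15.9, 6.54 and 3.73 CPM in B6, at -3.30 (SE 0.520, adjusted p = 0.000259). It was -2.14 (adjusted p = 4.82e-05) without B6 replicates 2 and 3. In controls Foxj1 was -1.26 (adjusted p = 0.112), and its interaction of -2.03 had an adjusted p of 0.999. Cyp2f2, a club cell cytochrome, was lower, at -3.77, on at most 3.81 CPM, with reads lost to an overlapping gene. Cldn18 (-0.94), Krt15 (-0.87) and Cldn10 (-0.80) were also lower, while Sox2 (-0.01), the proximal progenitor factor, was not called.

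Krt18, a keratin of simple epithelia, was lower in A/J. It read 37.1, 39.5, 32.3 and 35.2 CPM in A/J and 67.0, 96.2, 87.4 and 66.2 CPM in B6, at -1.14 (SE 0.127, adjusted p = 2.17e-06) with all libraries and -0.885 (adjusted p = 1.29e-05) without B6 replicates 2 and 3. Elf5, an epithelial factor of the distal tips, read 3.81 to 4.94 CPM in A/J and 12.6, 25.3, 13.7 and 14.2 CPM in B6, at -1.94 (adjusted p = 9.03e-09) and -1.64 (adjusted p = 5.71e-10) without them. Epcam, a surface marker of all epithelium, was lower, at -0.35 (adjusted p = 0.000172) and Cdh1 at -0.48 (adjusted p = 0.0201), a call lost without A/J replicate 1, 3 or 4 (adjusted p of up to 0.0596). The lineage factor Nkx2-1 did not pass (-0.29, adjusted p = 0.0553), and Sox9, the tip progenitor factor, read 0.28 (adjusted p = 0.135). Neuroendocrine markers were lower for 3 of 5 tested genes, among them Ccn3 at -1.43 and Uchl1 at -1.09, and all 3 were called in controls too. The Ccn3 call was lost in 5 of the 8 fits without 1 library (adjusted p of up to 0.0887).

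**Figure D4:**
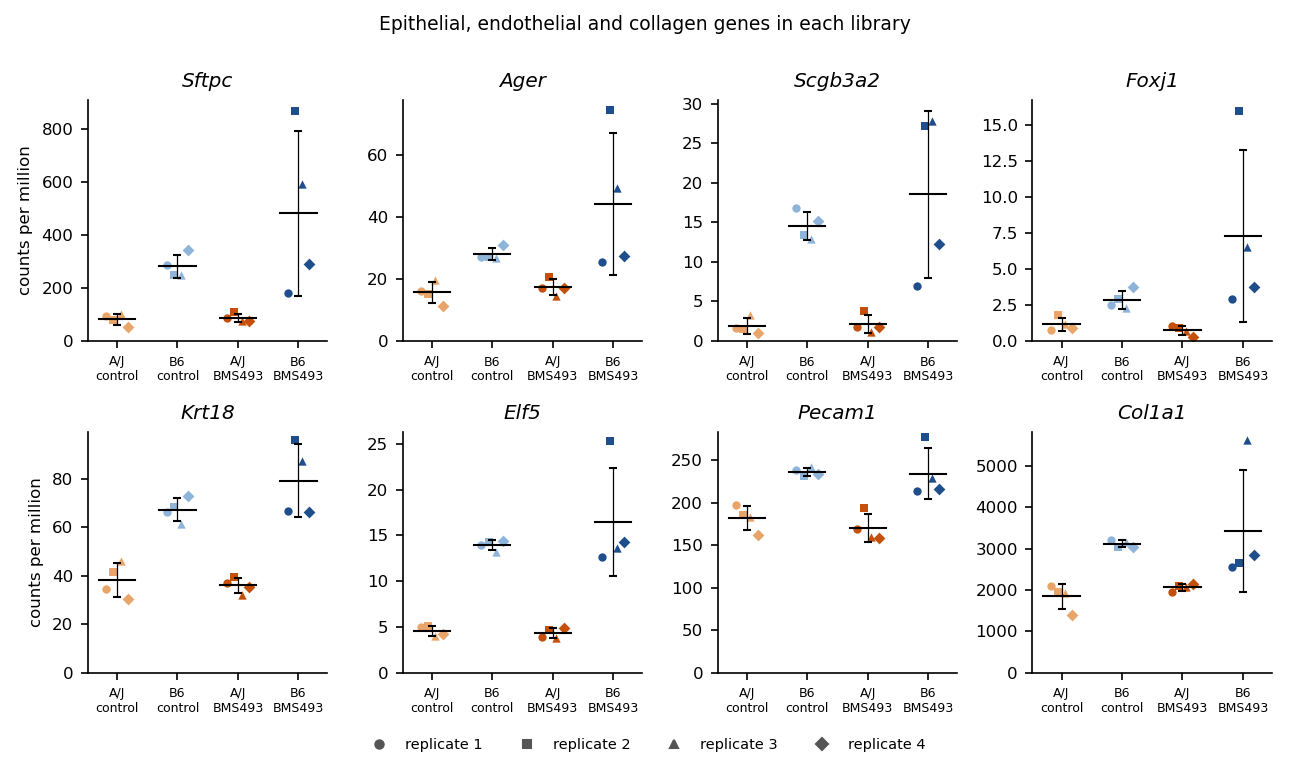
CPM of epithelial (Sftpc to Elf5), endothelial (Pecam1) and collagen (Col1a1) genes in each library, with the mean and SD of each group of 4. With BMS493 the A/J libraries lie below the B6 libraries. B6 BMS493 replicates 2 (squares) and 3 (triangles) were the highest for Sftpc, at 868 and 589.6 CPM, and replicate 3 was the highest for Col1a1, at 5613 CPM.

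The called blood vessel genes were all lower in A/J. All 19 tested endothelial genes had a negative log2 fold change, 14 were called lower (73.7%, against 13.5% of all coding genes) and 0 higher, and the median was -0.38, the same to 2 decimals as in controls (13 lower). The number called lower was 9 without B6 replicates 2 and 3. Pecam1, a junction protein of endothelium, read 169, 193, 160.0 and 158 CPM in A/J and 214, 278, 229.6 and 216 CPM in B6, at -0.46 (SE 0.077, adjusted p = 9.52e-05). Cldn5, the endothelial claudin, was lower, at -0.70, a call that was lost without A/J replicate 2 (adjusted p = 0.0541), and the receptor genes Aplnr (-0.61), Tie1 (-0.51), Tek (-0.46) and Kdr (-0.30) were lower too. Of 9 lymphatic genes, 4 were called (44.4%, against 21.4%). Vegfd (-0.80), Pdpn (-0.47) and Flt4 (-0.36) were lower and Reln (1.05) was higher. The Pdpn call was lost in 4 of the 8 fits without 1 library (adjusted p of up to 0.164).

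Among matrix genes, all 21 collagen chains had a negative log2 fold change, and 15 were called lower, which is 71.4% against 13.5% of all coding genes (median -0.49, against 8 lower and -0.42 in controls). The count of called collagen chains was 11 without B6 replicate 2, 11 without replicate 3 and 4 without both. Fits with fewer libraries also called fewer genes over all, so this fall cannot be assigned to these libraries. Col1a1, a chain of the main fibrillar collagen, read 1949, 2083, 2077 and 2143 CPM in A/J and 2554, 2659, 5613 and 2840.0 CPM in B6. Replicate 3 was far above the other B6 libraries, and all A/J libraries were below all B6 libraries. The log2 fold change was -0.73 (adjusted p = 0.0318) with all libraries and -0.39 (adjusted p = 0.0486) without B6 replicates 2 and 3, and the call was lost without any of the A/J libraries (adjusted p of up to 0.0783). Col15a1 (-0.95, adjusted p = 9.55e-06), a vascular and muscle basement membrane collagen, was called in every such fit.

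Of 16 elastic fibre genes, 9 were called (56.2%, against 21.4% of all coding genes), of which 8 were lower and 1, Fbln2, was higher in A/J. Lox, the enzyme that cross-links collagen and elastin, read 204, 274, 216 and 231 CPM in A/J and 503, 608, 458 and 472 CPM in B6, at -1.14 (SE 0.084, adjusted p = 2.28e-10), and -1.11 in controls. Ltbp2 read 10.3 to 20.2 CPM in A/J and 31.8 to 97.5 CPM in B6, at -2.0 (adjusted p = 0.00112). Efemp1 (-1.1) and Fbln5 (-0.60), fibulins of the elastic fibre, were lower as well, the latter with a call lost without A/J replicate 1, 3 or 4 (adjusted p of up to 0.0643). Eln, elastin itself, read 601, 702, 569.6 and 576 CPM in A/J and 653, 1464, 1883 and 814 CPM in B6, and its call (-0.97, adjusted p = 0.0388) was lost in 6 of the 8 fits without 1 library, among them those without B6 replicate 2 or 3 (adjusted p of up to 0.114). Of 12 cartilage genes 5 were lower, which is 41.7% against 13.5% of all coding genes (median -0.48, against -0.12 in controls), led by Cnmd (-1.01) and Matn4 (-0.96), and without B6 replicates 2 and 3 the median was -0.07 with 3 called.

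Smooth muscle genes differed in both directions. Of 15 tested genes, 6 were called with BMS493 (40%, against 21.4% of all coding genes), 3 higher and 3 lower in A/J, with a median of -0.07. With B6 replicates 2 and 3 left out, 1 was called, higher in A/J, and the median was 0.08. Actg2, a smooth muscle actin, read 124, 114, 111 and 116 CPM in A/J and 78.6, 72.7, 77.6 and 80.9 CPM in B6. It was higher by 0.59 (SE 0.063, adjusted p = 1.28e-07) with BMS493 and by 0.35 in controls, and its interaction of 0.24 was not called (adjusted p = 0.999). Acta2, the other smooth muscle actin, was lower, at -0.28 (SE 0.072, adjusted p = 0.0069), with overlapping ranges of 352 to 426 CPM in A/J and 421 to 508 CPM in B6. The Acta2 call was lost without B6 replicates 2 and 3 (-0.18, adjusted p = 0.142). Mylk (-0.26), Smtn (-0.18), Cald1 (0.20) and Synpo2 (0.27) were the other calls, while Myh11 (-0.05, adjusted p = 0.784) and Cnn1 (0.12, adjusted p = 0.395) were not called. The calls of Smtn, Cald1 and Synpo2 were lost in 5, 4 and 5 of the 8 fits without 1 library (adjusted p of up to 0.16, 0.122 and 0.115). Mylk and Smtn are uncertain, since the single-strand columns held 1.30 and 1.46 times their unstranded counts. Tagln had 3 to 12 unstranded counts per library, because its reads overlap another gene. On 1 strand it had 834 to 1034 counts in A/J and 794 to 1261 in B6 with BMS493, a log2 fold change of -0.16 (adjusted p = 0.281).

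Of 16 receptors that set airway tone, 2 were called (12.5%, against 21.4% of all coding genes). Chrm2, the muscarinic receptor that limits acetylcholine release and is coupled to inhibitory G proteins, was higher in A/J. It read 15.5, 15.4, 15.6 and 14.2 CPM in A/J and 12, 10.8, 6.74 and 9.25 CPM in B6, with no overlap, at 0.64 (SE 0.167, adjusted p = 0.00784), and 0.74 in controls. The difference was 0.51 (adjusted p = 0.0599) without B6 replicates 2 and 3. Ednrb, an endothelin receptor, was higher by 0.32 (adjusted p = 0.0181), a call lost without A/J replicate 1 (adjusted p = 0.0635). Chrm3, the muscarinic receptor that contracts airway muscle, read 0.07 (adjusted p = 0.899) at 1.60 to 4.59 CPM over the 8 libraries.

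Signalling genes of lung branching differed for single members. Of 15 FGF genes, 4 were called (26.7%, near the 21.4% of all coding genes). Fgf7, a mesenchymal growth factor for epithelium, read 1.58, 1.72, 1.07 and 1.31 CPM in A/J and 3.18, 7.15, 5.47 and 4.19 CPM in B6, at -1.81 (SE 0.244, adjusted p = 4.4e-06). The receptor gene Fgfr3 (-0.69) and Fgf18 (-0.53) were lower and Etv4 (0.34) higher, while Fgf10, the budding signal, was not called (-0.16, adjusted p = 0.179). The calls of Fgf18 and Etv4 were lost in 4 and 5 of the 8 fits without 1 library (adjusted p of up to 0.216 and 0.0958). Of 23 Wnt genes, 8 were called (34.8%, against 21.4%). The ligands Wnt2b (-0.91) and Wnt5a (-0.85) were lower with the coreceptor Lrp5 (-0.24). Wnt11 (0.53), the transcription factor Lef1 (0.65), the secreted inhibitor Sfrp1 (0.88), Nkd1 (0.29) and Fzd2 (0.17) were higher. Wnt5a read 29.2, 35.4, 37.8 and 31.9 CPM in A/J and 49.3, 77.5, 59.3 and 55.9 CPM in B6 (adjusted p = 3.81e-06). Sfrp1 read 47.3 to 68.3 CPM in A/J and 20.1 to 44.0 CPM in B6 (adjusted p = 0.00258). Lef1 is uncertain, with 1.55 times its unstranded counts in the single-strand columns.

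Of 20 BMP genes, 5 were called (25%, near the 21.4% of all coding genes). Of these, 4 were higher in A/J, among them Bmp7 (0.71) and the antagonists Fst (0.99) and Grem1 (0.84), and Bmp3 (-0.46) was lower. The Grem1 call was lost in 5 of the 8 fits without 1 library (adjusted p of up to 0.123). The hedgehog target Gli1 was the only call of 13 hedgehog genes (7.69%). It read 129.5, 119.6, 124 and 129 CPM in A/J and 115, 82.1, 83.4 and 103 CPM in B6, at 0.39 (SE 0.079, adjusted p = 0.000842), against 0.03 in controls. Its interaction of 0.36 was not called (adjusted p = 0.999), and part of its reads overlap another gene. The ligand Shh (-0.22, adjusted p = 0.0532) and the receptor and target Ptch1 (0.13, adjusted p = 0.241) were not called. Without B6 replicate 3, 3 hedgehog genes were called, all higher in A/J. Of 14 Notch genes, 8 were called (57.1%, against 21.4%), 7 lower and 1 higher in A/J (median -0.32, -0.28 in controls), with the ligand Dll1 at -0.60, the glycosyltransferase Lfng at -0.55, Dll4 at -0.49, the target Hey1 at -0.48 and the ligand Jag1 at 0.29. Without B6 replicates 2 and 3, 1 Notch gene was lower and 1 higher, and the Dll1 call was lost without either of these libraries (adjusted p of up to 0.0687). Of 16 TGF-beta genes, 4 were called, a share of 25% that is also near the 21.4% of all coding genes. Ltbp3 (-0.46), Tgfbr2 (-0.24) and Ltbp1 (-0.20) were lower and Tgfbr1 (0.17) higher, but 1 gene was called without B6 replicate 2 and 2 without replicate 3, all lower. The calls of Ltbp3 and Tgfbr1 were lost in both of these fits (adjusted p of up to 0.0658 and 0.0671), that of Tgfbr2 without replicate 2 (0.153) and that of Ltbp1 without replicate 3 (0.0576).

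Genes of the major histocompatibility complex (MHC), a polymorphic locus at which A/J and B6 carry different haplotypes, were mostly lower in A/J. The mouse reference genome is from C57BL/6J, and how far A/J reads of differing alleles went uncounted was not tested. Of 23 tested MHC and antigen presentation genes, 15 were called (65.2%, against 21.4% of all coding genes), 14 lower and 1 higher in A/J (median -1.17, and -0.87 in controls with 11 lower and 2 higher). Without B6 replicates 2 and 3, 13 were lower and 1 higher. H2-D1, a class I heavy chain, read 3.90, 4.49, 2.65 and 4.03 CPM in A/J and 38.5, 51.5, 44.2 and 34.3 CPM in B6, at -3.48 (SE 0.163, adjusted p = 1.22e-13), and 12.8% of its windows occur in other genes. H2-Q2 had 0 counts in A/J and 3.76 to 6.01 CPM in B6, at least 136-fold lower in A/J, and 16.1% of its windows occur in other genes. The other class I heavy chain gene of the H2 haplotypes, H2-K1, was lower, at -0.67 (adjusted p = 0.000567).

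Of the class II pathway, H2-Eb1, H2-Ab1 and Cd74 were lower and H2-DMa was higher. H2-Eb1, a beta chain, read 0.139, 0.0440, 0.140 and 0.0504 CPM in A/J and 0.656, 1.18, 2.27 and 0.976 CPM in B6, at -3.66 (SE 0.511, adjusted p = 7.94e-06), against -1.39 (adjusted p = 0.0512) in controls. Its interaction of -2.27 was not called (adjusted p = 0.999). H2-Ab1 (-3.35) and the invariant chain Cd74 (-1.67) were lower, as were the peptide transporter genes Tap1 (-1.17) and Tap2 (-1.43) and the light chain gene B2m (-0.53, on chromosome 2). Tap2 is uncertain for the same reason as Lef1, at 1.72 times its unstranded counts. The B2m call was lost without A/J replicate 4 (adjusted p = 0.0515). H2-DMa, a class II chaperone, was higher by 0.87 (adjusted p = 0.00102). The class II alpha gene of the E locus, which B6 is known to lack, was too low to be tested. It read 0.186 and 0.220 CPM in A/J replicates 1 and 2, on 9 counts in all, and 0 in the other 6 libraries.

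Interferon-stimulated genes other than the Gbp family gave 5 lower and 1 higher of 25 (median -0.36, -0.07 in controls), a share of 24% near the 21.4% of all coding genes. Without B6 replicate 2 there were 3 lower and 2 higher (median -0.23), and without replicates 2 and 3 there were 2 of each (median -0.19). Oasl2, an antiviral gene, was the lowest at -1.28 (adjusted p = 0.0227), but it rested on B6 replicates 2 and 3, at 4.52 and 3.40 CPM against 0.788 to 1.28 in the other 6. Without them it was -0.01 (adjusted p = 0.997).

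Of 7 tested mast cell genes 5 were called (71.4%, against 21.4% of all coding genes), 2 higher and 3 lower in A/J. Cpa3, the carboxypeptidase of mast cell granules, read 4.50, 4.62, 9.63 and 7.96 CPM in A/J and 2.98, 4.02, 2.47 and 5.40 CPM in B6, with overlap, at 0.84 (adjusted p = 0.0238) against -0.42 in controls. Tpsb2, a mast cell tryptase, read 1.90, 2.11, 3.07 and 3.93 CPM in A/J and 0.757, 1.86, 0.934 and 1.84 CPM in B6, at 1.01 (adjusted p = 0.0288) against -0.17 in controls. Both calls were lost in the fits without A/J replicate 3 or 4 or B6 replicate 1 or 3 (adjusted p of up to 0.131), and neither interaction (1.26 and 1.18) was called (adjusted p = 0.999 each). Kit (-0.71), Gata2 (-0.41) and Srgn (-0.89), which other cell types of the lung also express, were lower in A/J, with the Gata2 call lost in 5 of the 8 fits without 1 library (adjusted p of up to 0.241). Of 17 macrophage genes, 5 were called (29.4%, against 21.4%). Mrc1, the mannose receptor, was higher, at 49.1 to 55.6 CPM in A/J and 27.9 to 36.7 CPM in B6 (0.75, adjusted p = 5.73e-07), with Cd68 (0.50) and Cx3cr1 (0.27), whose calls were lost in 4 and 6 of the 8 fits without 1 library (adjusted p of up to 0.108 and 0.117). Lyz2, which distal epithelium also expresses, was lower (-1.12) and lost its call in 5 of the 8 fits without 1 library (adjusted p of up to 0.0851), and C1qb was lower, at -0.49.

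Neural genes had the highest median of the lists with more than 10 tested members, 0.76 over 16 genes (0.36 in controls), on low counts. Sox10, a neural crest and glial factor, read 1.53, 1.23, 3.77 and 2.42 CPM in A/J and 1.16, 1.14, 0.534 and 0.632 CPM in B6, at 1.32 (adjusted p = 0.00482). Tubb3, the neuronal tubulin, read 1.85, 0.836, 1.72 and 2.06 CPM in A/J and 0.353, 1.01, 0.467 and 0.287 CPM in B6, at 1.54 (adjusted p = 0.00438), with B6 replicate 2 within the A/J range. In all 6 neural genes were called (37.5%, against 21.4%), of which 4 were higher, Nefl (1.14) among them, and 2 were lower, with Ret at -0.58. The Nefl call was lost without A/J replicate 3 or B6 replicate 2 (adjusted p of up to 0.0728), and Nefl is uncertain, since 31.8% of its windows occur in other genes. Of 10 mesothelium genes 7 were called (70%, against 21.4%), 4 higher and 3 lower, with the mesothelial factor Wt1 at 0.75 and the surface protein gene Msln at -2.28, and without B6 replicates 2 and 3 only 1 of them was called.

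The remaining lists are given by their counts. Of 16 mesenchyme genes 7 were called (43.8%, against 21.4% of all coding genes), 2 higher and 5 lower, led by Mfap4 (-0.82) and Tcf21 (-0.42). Of 25 cell cycle genes 1 (4%) was called (Ccne1, 0.30), and not without A/J replicate 3 or B6 replicate 2 (adjusted p of up to 0.0629). Of 11 mitochondrially encoded genes 0 were called, 0 of them with an unadjusted p under 0.05 in edgeR (smallest 0.113) and 0 by DESeq2. Of 17 tested erythroid genes 3 were called (17.6%, below the 21.4% of all coding genes), among them the copied gene Hba-a2 and Hbb-bh1 (0.83), whose call was lost in 4 of the 8 fits without 1 library (adjusted p of up to 0.0892). Without B6 replicate 2, and also without replicate 3, 1 erythroid gene was called, lower in A/J. Of 16 glutathione and xenobiotic genes, 5 were called (31.2%, against 21.4%): 4 were lower, led by Ces1d (-0.94) and the receptor gene Ahr (-0.52), and Cyp1b1 (0.56) was higher. Of 8 lymphocyte and granulocyte genes 1 was higher and 2 lower (37.5% called, against 21.4%). Without B6 replicate 2, 1 was lower and 0 higher, and without replicate 3, 2 were lower and 0 higher. Of 8 heart genes Myh7 was lower (-1.34, a call lost in 4 of the 8 fits, adjusted p of up to 0.175), both tested squamous genes, Krt4 and Sfn, were lower, and neither of the 2 thymus genes was called.

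**Figure D5:**
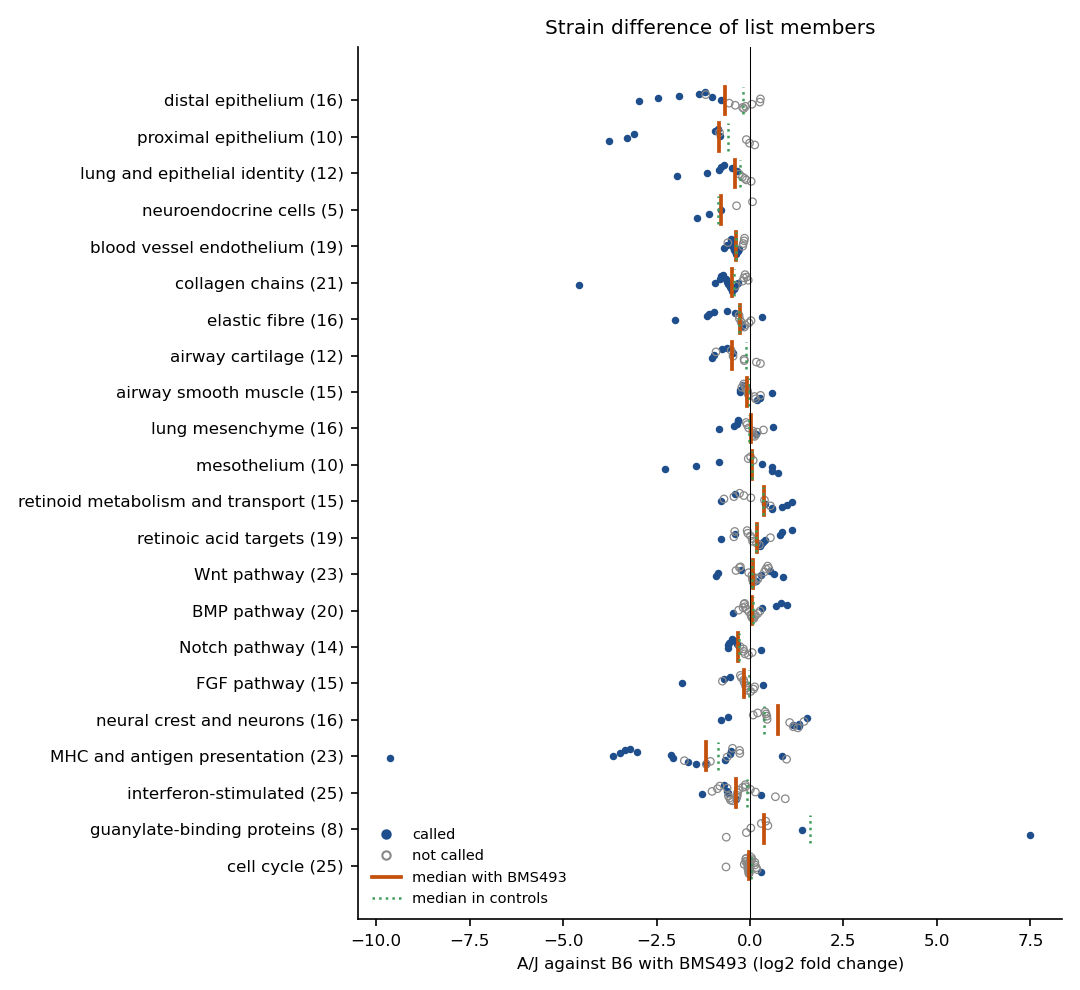
Log2 fold change of A/J against B6 with BMS493 for the tested members of 22 gene lists (number of members in brackets), with called members filled and not called members open. Bars give the list median with BMS493 and dotted bars that in controls; the endothelium and collagen points all lie left of 0, with medians of -0.38 and -0.49.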

How the data were processed

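RNA from whole fetal lung was sequenced as poly(A) libraries, 4 for each pair of strain and treatment, and groups were taken from the sample titles. The authors deposited counts of fragments per gene, in 3 columns for 2 choices of strand and for none. The submitters' processing notes name FastQC, cutadapt, STAR and the build GRCm39, with no versions or settings given in the sources used here. The unstranded counts were used, since the first strand column held about as many fragments as the second. Each file lists 57180 genes after 4 lines that are no gene, which were left out of library sizes. Fragments that mapped to several places or to overlapping genes stand in lines of their own, per the file headers, and are in no gene count, so genes with copies or with an overlapping neighbour can read too low. Names, types and chromosomes came from GENCODE M21, which held 51933 of the identifiers and 98.88% of the counts. Its build differs from that of the files, so none of its coordinates are given. Promoters and their coordinates are from RefSeq on GRCm38.p6, and all 3 genes looked up were matched.

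Counts were fitted in R 4.3.3 with edgeR 4.0.16 (limma 3.58.1) over all 16 libraries, with filterByExpr, TMM scaling, a robust quasi-likelihood fit with 12 residual degrees of freedom and a prior count of 2. This left 17276 genes, of which 14155 are protein-coding, and p-values were adjusted over all 17276 by the Benjamini-Hochberg method. The standard error is the fold change over the root of the F statistic. The fit was tested on simulated data. Tables and ratio intervals were made with Python 3.11.15, pandas 2.3.3 and scipy 1.17.1. A floor of 3 counts over the group stands for groups with 0 counts, and intervals and floors cover counting error only. Alternatives were RLE scaling, DESeq2 1.42.0, no filter, a mean of at least 1 CPM, 1 strand, coding genes only, the 8 BMS493 libraries alone, a replicate block, the library set as a covariate, and each library left out. Fits without B6 BMS493 replicates 2 and 3, and to replicates 1 and 2 or 3 and 4 alone, were added after seeing the data.

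The members and the 39 gene lists were chosen with earlier results of these data known, and the lists partly overlap. Genes are named by rule among called coding genes, without clone, GenBank or predicted-gene names, whose BMS493 groups do not overlap: the 10 highest and 10 lowest fold changes at a mean of at least 5 CPM, the 12 with the smallest interaction p described in the text, the 6 most abundant with an absolute log2 fold change of at least 1, genes called in the interaction, and called list members with the largest changes, with a panel of retinoid, smooth muscle and strain allele genes whatever their result. Other list members that are named were chosen after their values were seen. Some list members that count in the list totals are not reported here by name.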

Additional observations from a re-analysis of the deposited data

Results flagged for a closer look

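In 11 of 108 groups of 4 libraries examined, 1 library stood apart from the other 3, where the gap to its nearest neighbour over the whole range passed Dixon's critical value for 4 samples. Chance flags about 1 in 20 groups. Among genes lower in A/J, Itgb6 had replicate 2 apart in both strains, at 6.56 CPM against 4.08 to 4.33 in A/J (gap share 0.899) and at 11.5 CPM against 7.01 to 7.78 in B6 (0.831). B6 replicate 3, the library with low mitochondrial and high collagen transcripts, stood apart in Rps3a1 at 1670 CPM against 1080 to 1140 (0.891), in Rpl29 at 341 CPM against 453 to 461 (0.928) and in Cyp26b1 at 2.47 CPM against 1.1 to 1.21 (0.922). B6 replicate 1 stood apart in Hba-a2 at 40.8 CPM against 67.2 to 70.8 (0.882) and in Myh8 at 0.454 CPM against 0.334 to 0.345 (0.91). A/J replicate 2 stood apart in Plac9a at 5.68 CPM against 4.08 to 4.14 (0.963) and in Hebp1 at 23.5 CPM, where the other 3 were all at 24.1 (0.893). A/J replicate 4 stood apart in Plekhd1 at 4.68 CPM against 5.77 to 5.81 (0.965) and in Chrm2 at 14.2 CPM against 15.4 to 15.6 (0.899).

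The strain contrast of Gbp2 differed between the treatments by -2.16 on the log2 scale (edgeR, adjusted p = 0.000736), from 2.06 in controls to -0.10 with BMS493, with all 4 A/J controls above all 12 other libraries.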

How the results depend on the processing

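With 4 libraries a group and 2 of the B6 BMS493 group standing apart, the counts of calls are less certain than the directions. Fits to replicates 1 and 2 alone and to replicates 3 and 4 alone called 1141 and 1133 coding genes with BMS493 (392 and 300 higher, 749 and 833 lower), and 944 and 945 in controls. They called 0 and 0 in the interaction, and 548 and 464 with BMS493 only, and replicates 1 and 2 alone gave 375 calls of at least 1 on the log2 scale. Without B6 BMS493 replicates 2 and 3 together, 1745 were called (616 higher, 1129 lower), 431 of at least 1 on the log2 scale, and 294 with BMS493 only, while 3485 were called in controls. The 8 BMS493 libraries alone called 2018 genes, 699 higher and 1319 lower. The interaction had 2 calls with DESeq2, 12 without the filter, and 2 each without A/J BMS493 replicate 3 and without B6 control replicate 3.

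Leaving out 1 library at a time, the calls with BMS493 ranged from 2200 to 3452, those higher from 786 to 1306, those lower from 1414 to 2146, those of at least 1 on the log2 scale from 503 to 765, those in controls from 1898 to 2957 and those of the interaction from 1 to 2. Calls with BMS493 only ranged from 599 (without B6 BMS493 replicate 2) to 1664, with 773 and 797 without A/J BMS493 replicates 3 and 4. DESeq2 kept the direction and call of all 187 named strain differences with BMS493 it was compared over, while with the 8 BMS493 libraries alone 137 kept theirs and 43 lost the call. Interactions are not among the 187, and that of Lrat was called by DESeq2 only and not in the main fit.

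Among named genes, directions turned only for values that were not called. With replicates 1 and 2 alone the Rnf17 interaction was 0.456, Rarb 0.036, Myh11 0.049 and Chrm3 -0.12. Chrm3 was -0.060 on 1 strand. Without B6 BMS493 replicates 2 and 3 together, Myh11 was 0.11 and Chrm3 -0.38. Leaving out 1 BMS493 library at a time, Myh11 ranged from -0.097 to 0.049, Chrm3 from -0.12 to 0.39 and Gbp2 from -0.27 to 0.025. The cause of these shifts was not tested.

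Deviations of same-numbered BMS493 libraries correlated at 0.011, 0.145, 0.0005 and -0.006 over genes, and not every library correlated best with its own number. The value of 0.145, for replicate 2, was the highest between A/J and B6 libraries with BMS493. Replicate 2 was also the highest of each BMS493 group in summed distal epithelium markers (1080 CPM in A/J and 2139 in B6). Low correlations over genes cannot show that same-numbered samples were not paired. With the replicate number as a block, 3059 coding genes were called with BMS493, 2533 in controls, 1207 with BMS493 only and 1 in the interaction.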

Other observations

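The share of tested protein-coding genes called with BMS493 differed between chromosomes. It was lowest on chromosome 16, at 14.85% (64 of 431 genes), and highest on chromosome 1, at 26.35% (215 of 816), with 24.64% on chromosome 17, which carries the MHC, and 17.04% on chromosome X. On each of the 20 chromosomes other than Y more genes were called lower than higher in A/J.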
